A study of Mus musculus with 4 samples.

Results

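This account concerns 40 genes associated with the maturation of astrocytes, the star-shaped glial cells of the brain. It describes how their RNA levels differed between female mouse neural stem cells with Smchd1 deleted (del/del) and controls that kept a conditional allele (del/fl). The members are the 40 listed symbols, taken by exact match of the gene name in the deposited count table. All 40 were found among its 25965 entries, each once, and 38 had enough counts to be tested. Gjb6 and Slc14a1 did not. Neural stem cells are cultured progenitors that can give rise to neurons, astrocytes and oligodendrocytes. Smchd1 is a chromatin protein needed for silencing on the inactive X chromosome and at some clustered and imprinted autosomal genes.

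The deleted group is Smchd1 del/del and its control group Smchd1 del/fl, so every cell carried at least 1 deleted Smchd1 allele and the controls kept 1 conditional allele. All lines were female, came from E14.5 embryos of a mixed C57BL/6, 129 and Castaneus background, and carried a 129 X with the Xist deltaA allele from the mother and a Castaneus X with intact Xist from the father. Each line was divided: one part received a Cre and puromycin retrovirus (MSCV-Cre-puro), was selected from 24 h later and was harvested 7 days after transduction, and the other part stayed untransduced. Deletion therefore cannot be told apart from transduction and selection. The data held 2 lines, called A and B here, each with 1 del/del and 1 del/fl library, so the groups have 2 libraries each. The design text speaks of 3 lines per genotype, and further lines were not analysed here.

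Astrocytes buffer potassium and water around synapses, couple to one another through gap junctions, recycle glutamate to glutamine, and secrete lipid carriers and extracellular matrix. Neural stem cells already express part of this programme, because radial glia and cultured neural stem cells share many genes with astrocytes. During differentiation, signals through STAT3, BMP receptors and Notch act together with nuclear factor I proteins to raise genes such as Gfap, S100b and Aqp4, which mark more mature astrocytes. A bulk RNA level cannot separate a larger share of cells that express a gene from more RNA of it per cell.

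Depth was similar in all libraries, from 29873400 to 34018500 counts. Values below are CPM, counts per 1000000 counts, on library sizes scaled by the trimmed mean of M values, and each pair of values gives line A and then line B. Smchd1, the targeted gene, had 23.4 and 26.6 CPM in del/del libraries, against 93.5 and 102 CPM in del/fl libraries (log2 fold change −1.96, SE 0.07, adjusted p = 0.0194 by edgeR). The cultures expressed the progenitor genes Sox2 (254 and 327 CPM in del/del libraries, against 264 and 308 CPM in del/fl libraries) and Nes (1283 and 901 CPM in del/del libraries, against 1663 and 1355 CPM in del/fl libraries). Del/del line A stood apart in interferon-stimulated genes, whose 25 listed members summed to 702 and 157 CPM in del/del libraries, against 176 and 135 CPM in del/fl libraries. Trim25, one of them, had 60.0 and 19.9 CPM in del/del libraries, against 15.6 and 16.5 CPM in del/fl libraries.

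Of the 38 tested astrocyte genes, 19 rose in del/del cells and 0 fell (edgeR quasi-likelihood test with line as a block, Benjamini-Hochberg adjusted p under 0.05 over all 14860 genes tested). The background was 3.71% of all tested genes called higher and 1.89% called lower. At an unadjusted p under 0.05, 31 members were higher and 3 lower, where 17.2% of all tested genes were higher and 13.6% lower. The rises ran from 1.49-fold for Cst3 to 7.09-fold for Scrg1, and their adjusted p from 0.0194 to 0.0491. Over the 38 genes the median log2 fold change was 0.84, beside 0.0103 over all genes tested. The fold change was positive in both lines for 32 of the 38, where 38.1% of all genes tested were positive in both. At least 2-fold higher levels in both lines were found for 8 of the 38, against 2.24% of all genes. Interferon-stimulated genes had a median log2 fold change of 2.62 in line A and 0.22 in line B, while the members had 1.01 in line A and 0.65 in line B. Of 22 interferon-stimulated genes tested, edgeR called 0, DESeq2 called 3 higher, and 13 were higher at an unadjusted p under 0.05, beside the 17.2% of all genes. Their part in the rise of the astrocyte genes was not tested.

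Without the term for line, edgeR called 0 of the 38 genes and 0 of all genes, and the adjusted p of Smchd1 itself was 0.341. At an unadjusted p under 0.05 that fit put 21 members higher and 0 lower, where 6.86% of all genes were higher and 718 of 14860 lower. Adjusted p-values of members in that edgeR fit ran from 0.341 to 0.923. DESeq2 with line as a block called 23 members higher, the 19 among them, where 5.63% of 13707 genes were higher. It called 2 members lower, Cd44 and Nfib, where 427 of the 13707 genes were lower.

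**Figure D1:**
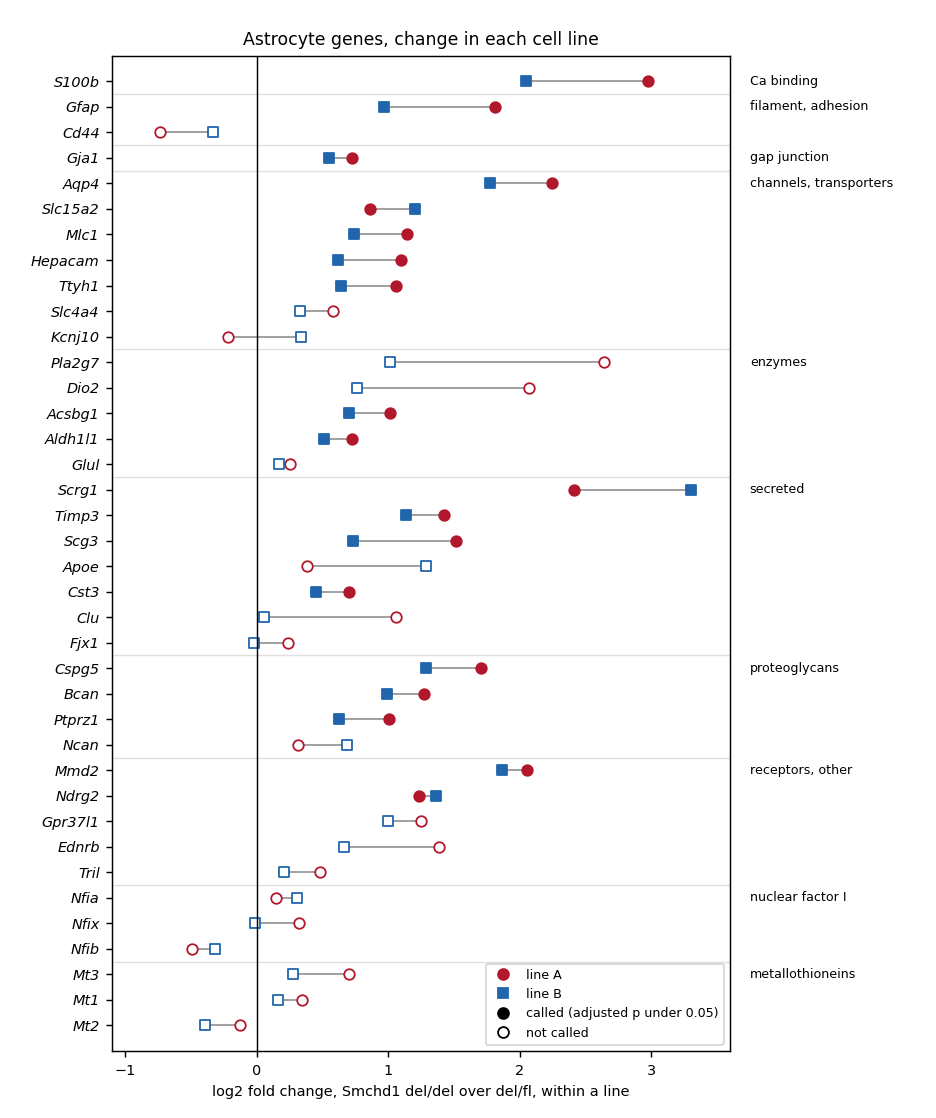
Log2 fold change of each of the 38 tested astrocyte genes, Smchd1 del/del over del/fl, in line A (circles) and line B (squares), grouped by role; filled symbols mark genes called at an adjusted p under 0.05. The 19 called genes lie right of 0 in both lines, from 0.45 (Cst3, line B) to 3.30 (Scrg1, line B), and Cd44, Nfib and Mt2 lie left of 0 in both.

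The promoters of 6 of the genes that rose are shown because nuclear factor I proteins and STAT3 are the textbook regulators of astrocyte genes and their recognition letters can be looked for there. Promoter sequence from RefSeq (GRCm38.p6, the assembly of mm10) was searched for 33 of the 40 genes. The search took the 250 bases before each start, on both strands. Aqp4, Cspg5 and Scrg1, which rose, were not among the genes searched, so the counts below leave them out. Capitals mark TTGGCA, a half-site of nuclear factor I, in S100b (chr10:76253586-76253835, plus strand), Mmd2 (chr5:142608753-142609002, minus strand), Hepacam (chr9:37367356-37367605, plus strand) and Slc15a2 (chr16:36784963-36785212, minus strand). In Acsbg1 (chr9:54661886-54662135, minus strand) they mark TTCNNNGAA, the STAT element. The Gfap window (chr11:102897201-102897450, minus strand) held neither and is shown in lower case throughout. Bases further upstream were not searched in any gene, so a site there would be missed. The sequences run 5′ to 3′ in the direction of the gene and end at the base before the start.
S100b: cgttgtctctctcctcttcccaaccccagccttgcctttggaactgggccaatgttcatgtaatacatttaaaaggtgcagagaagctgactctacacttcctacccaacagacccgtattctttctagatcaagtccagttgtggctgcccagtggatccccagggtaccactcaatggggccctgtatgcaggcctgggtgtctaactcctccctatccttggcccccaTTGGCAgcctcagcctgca
Mmd2: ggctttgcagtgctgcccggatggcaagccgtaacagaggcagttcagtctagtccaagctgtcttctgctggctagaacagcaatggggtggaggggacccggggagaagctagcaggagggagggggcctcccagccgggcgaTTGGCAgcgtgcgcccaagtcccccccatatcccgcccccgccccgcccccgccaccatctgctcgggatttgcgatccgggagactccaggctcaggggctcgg
Hepacam: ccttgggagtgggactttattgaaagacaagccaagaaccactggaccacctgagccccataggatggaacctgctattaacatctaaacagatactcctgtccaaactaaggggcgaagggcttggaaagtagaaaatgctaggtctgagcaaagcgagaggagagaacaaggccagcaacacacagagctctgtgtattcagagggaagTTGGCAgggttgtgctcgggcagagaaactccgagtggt
Slc15a2: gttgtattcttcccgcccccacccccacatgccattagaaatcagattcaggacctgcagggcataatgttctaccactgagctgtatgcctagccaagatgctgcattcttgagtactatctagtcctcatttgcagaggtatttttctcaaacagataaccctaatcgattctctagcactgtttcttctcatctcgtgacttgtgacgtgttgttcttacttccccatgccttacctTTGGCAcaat
Acsbg1: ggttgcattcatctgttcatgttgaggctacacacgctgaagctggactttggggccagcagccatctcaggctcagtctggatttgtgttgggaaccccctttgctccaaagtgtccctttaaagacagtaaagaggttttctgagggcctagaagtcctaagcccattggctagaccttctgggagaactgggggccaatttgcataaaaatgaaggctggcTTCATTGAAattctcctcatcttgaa
Gfap: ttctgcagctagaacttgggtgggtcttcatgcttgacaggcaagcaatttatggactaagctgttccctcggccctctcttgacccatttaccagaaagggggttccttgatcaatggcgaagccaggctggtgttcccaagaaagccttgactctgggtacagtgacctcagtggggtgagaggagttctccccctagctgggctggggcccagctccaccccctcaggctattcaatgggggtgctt
The match lay 19 to 14 bases before the start in S100b, 105 to 100 in Mmd2, 39 to 34 in Hepacam, 10 to 5 in Slc15a2 and 26 to 18 in Acsbg1. Some genes have several windows, so genes with a match in at least 1 window were counted. The half-site was found for 4 of 16 genes that rose and for 3 of 16 that were tested and not called (Apoe, Ncan and Mt1), where 14.1% of all 27025 genes with a window had it. The STAT element was found for 1 of the 16 that rose and 2 of the 16 not called (Nfix and Pla2g7), where 8.13% of all genes had it. The full palindromic nuclear factor I motif was in no window of these genes and in that of 0.0444% of all genes. The window of Gjb6, which was not tested, held none of the 3 motifs. A match describes letters only, and binding was not measured.

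The best-known markers of maturing astrocytes, S100b and Gfap, both rose. S100b, a calcium-binding protein secreted by astrocytes (chromosome 10, 76253853 to 76261159, mm10), had 16.6 and 3.72 CPM in del/del libraries, against 2.05 and 0.851 CPM in del/fl libraries. Both del/del libraries lay above both del/fl libraries, with del/del line A the highest by far (log2 fold change 2.64, SE 0.28, adjusted p = 0.023 by edgeR). Gfap, the intermediate filament protein that defines reactive and mature astrocytes (chromosome 11, 102887336 to 102900912), had 49.0 and 38.3 CPM in del/del libraries, against 13.9 and 19.6 CPM in del/fl libraries. The groups did not overlap, and the rise was 2.61-fold (log2 fold change 1.38, SE 0.21, adjusted p = 0.041 by edgeR). The counts behind S100b were 555 and 119 in del/del libraries, against 61 and 29 in del/fl libraries. Its size rests in part on line A, since without a term for line the log2 fold change was 1.36 without del/del line A, 3.50 without del/del line B and 3.56 without del/fl line A, and in line B alone it was 2.05. Cd44, a hyaluronan receptor found on astrocyte precursors and reactive astrocytes, went the other way without passing the test, at 62.0 and 90.3 CPM in del/del libraries, against 104 and 114 CPM in del/fl libraries. It was lower in del/del cells of both lines (log2 fold change −0.53, SE 0.11, adjusted p = 0.0633 by edgeR), and DESeq2 called it lower.

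Of the 7 tested channels, transporters and their partners at astrocyte membranes, 5 rose, while the ion transport genes Slc4a4 and Kcnj10 were not called. Aqp4, the water channel of astrocyte endfeet, had 27.9 and 26.6 CPM in del/del libraries, against 5.82 and 7.75 CPM in del/fl libraries. The del/del libraries were nearly equal and lay 4.04-fold above the del/fl libraries (log2 fold change 2.01, SE 0.16, adjusted p = 0.0194 by edgeR). Mlc1 and Hepacam encode membrane proteins that form a complex at astrocyte junctions. Mlc1 had 633 and 371 CPM in del/del libraries, against 287 and 222 CPM in del/fl libraries (log2 fold change 0.94, SE 0.11, adjusted p = 0.0283 by edgeR). Hepacam had 129.8 and 108 CPM in del/del libraries, against 60.8 and 70.2 CPM in del/fl libraries (log2 fold change 0.86, SE 0.13, adjusted p = 0.0383 by edgeR). In both genes the groups were separate.

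Slc15a2 encodes a peptide transporter of astrocytes (chromosome 16, 36750178 to 36784962). Its level was 62.5 and 90.1 CPM in del/del libraries, against 34.5 and 39.1 CPM in del/fl libraries (log2 fold change 1.03, SE 0.10, adjusted p = 0.0226 by edgeR), and the change was larger in line B. Ttyh1, a tweety family membrane protein, had 123 and 155 CPM in del/del libraries, against 58.9 and 99.1 CPM in del/fl libraries (log2 fold change 0.85, SE 0.12, adjusted p = 0.0335 by edgeR). Slc4a4, the sodium bicarbonate cotransporter, was not called at 606 and 819 CPM in del/del libraries, against 406 and 653 CPM in del/fl libraries. Its libraries overlapped between the groups because line B was higher than line A in both (log2 fold change 0.45, SE 0.09, adjusted p = 0.0579 by edgeR). Kcnj10, the inward rectifier potassium channel of mature astrocytes, had 53.0 and 119.9 CPM in del/del libraries, against 61.7 and 95.3 CPM in del/fl libraries. It was lower in del/del cells of line A and higher in those of line B (log2 fold change 0.06, SE 0.14, adjusted p = 0.796 by edgeR). The urea transporter gene Slc14a1 had 3 and 3 counts in del/del libraries and 9 and 4 in del/fl libraries, too few to test.

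Of the gap junction genes, Gja1, which encodes connexin 43, rose. It had 205 and 151 CPM in del/del libraries, against 124 and 103 CPM in del/fl libraries (log2 fold change 0.64, SE 0.08, adjusted p = 0.0273 by edgeR), with separate groups. Gjb6, the connexin 30 gene of mature astrocytes, had 3 counts in del/del line A and 0 in the other libraries and was not tested.

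Among enzymes 2 of 5 were called, and all 5 were positive in both lines. Acsbg1, an acyl-CoA synthetase of very long chain fatty acids, had 642 and 508 CPM in del/del libraries, against 318 and 312 CPM in del/fl libraries (log2 fold change 0.86, SE 0.10, adjusted p = 0.0259 by edgeR). Aldh1l1, the folate enzyme used as a general astrocyte marker, had 179 and 71.6 CPM in del/del libraries, against 108 and 50.1 CPM in del/fl libraries. Here the groups overlapped, since line A was above line B in both, and the call rests on the pairing within lines (log2 fold change 0.62, SE 0.08, adjusted p = 0.0321 by edgeR). Without del/del line A and without a term for line its log2 fold change was −0.15, and without del/fl line A it was 1.32. About 11.0% of its exon length is shared with an antisense gene, Gm15756, whose reads cannot be told apart if strand was not used.

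Pla2g7 and Dio2 had larger fold changes than either but differed strongly between the lines and were not called. Pla2g7, which degrades platelet-activating factor, had 60.9 and 31.2 CPM in del/del libraries, against 9.73 and 15.4 CPM in del/fl libraries (log2 fold change 1.81, SE 0.39, adjusted p = 0.0655 by edgeR). About 11.0% of its exon length overlaps the antisense gene 1700071M16Rik. Dio2, the deiodinase that activates thyroid hormone in astrocytes, had 55.9 and 70.4 CPM in del/del libraries, against 13.3 and 41.5 CPM in del/fl libraries (log2 fold change 1.38, SE 0.31, adjusted p = 0.0694 by edgeR). In both genes the groups were separate, and del/fl line A was the lowest library. Glul, glutamine synthetase, differed little at 185 and 199.5 CPM in del/del libraries, against 155 and 178 CPM in del/fl libraries (log2 fold change 0.21, SE 0.07, adjusted p = 0.119 by edgeR).

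Of the 7 secreted proteins, 4 rose. Scrg1, a small secreted protein known from scrapie-infected brain (chromosome 8, 57455923 to 57477585), had 17.0 and 8.06 CPM in del/del libraries, against 3.13 and 0.763 CPM in del/fl libraries (log2 fold change 2.83, SE 0.28, adjusted p = 0.0225 by edgeR). It had 568 and 258 counts in del/del libraries and 93 and 26 in del/fl libraries, so the groups were separate while line A exceeded line B in both. Its fold rests on few counts in del/fl line B. Without a term for line the log2 fold change was 2.05 without del/del line A, 4.02 without del/fl line A and 2.00 without del/fl line B. Those values mix line with genotype. Timp3, an inhibitor of matrix metalloproteinases (chromosome 10, 86300372 to 86349506), had 64.5 and 37.5 CPM in del/del libraries, against 23.9 and 17.1 CPM in del/fl libraries (log2 fold change 1.28, SE 0.11, adjusted p = 0.0195 by edgeR). Of its exon length 21.3% overlaps exons of Syn3 on the opposite strand. Scg3, a granin of secretory granules (chromosome 9, 75643264 to 75683996), had 61.6 and 31.9 CPM in del/del libraries, against 21.6 and 19.2 CPM in del/fl libraries. Del/del line A was the highest library, and the adjusted p was the closest to the threshold among the called genes (log2 fold change 1.13, SE 0.20, adjusted p = 0.0491 by edgeR). Cst3, cystatin C, rose least of the called genes, at 351 and 398 CPM in del/del libraries, against 216 and 291 CPM in del/fl libraries (log2 fold change 0.57, SE 0.09, adjusted p = 0.0405 by edgeR).

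Apoe, Clu and Fjx1 were not called. Apoe, the main lipid carrier of astrocytes, had 369.8 and 483 CPM in del/del libraries, against 284 and 198 CPM in del/fl libraries, with separate groups and most of the change in line B (log2 fold change 0.83, SE 0.22, adjusted p = 0.0865 by edgeR). Clu, the extracellular chaperone clusterin, had 174 and 75.2 CPM in del/del libraries, against 83.5 and 72.4 CPM in del/fl libraries. Only del/del line A stood out (log2 fold change 0.56, SE 0.24, adjusted p = 0.194 by edgeR), and without that library and without a term for line the value was −0.05. Fjx1, a homologue of a secreted Drosophila kinase, had 92.4 and 95.6 CPM in del/del libraries, against 78.3 and 96.9 CPM in del/fl libraries (log2 fold change 0.11, SE 0.09, adjusted p = 0.442 by edgeR).

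Of the brain proteoglycans and their relative Ptprz1, 3 of 4 rose. Ptprz1, a receptor tyrosine phosphatase whose ectodomain is a chondroitin sulphate proteoglycan, had 2974 and 3188 CPM in del/del libraries, against 1478 and 2064 CPM in del/fl libraries (log2 fold change 0.82, SE 0.12, adjusted p = 0.0378 by edgeR). Bcan, the lectican brevican (chromosome 3, 87987531 to 88000356), had 676 and 536 CPM in del/del libraries, against 281 and 269 CPM in del/fl libraries (log2 fold change 1.13, SE 0.09, adjusted p = 0.0195 by edgeR). The groups were separate for both genes. Cspg5, neuroglycan C (chromosome 9, 110243783 to 110262575), had 474 and 277 CPM in del/del libraries, against 146 and 113 CPM in del/fl libraries, a 2.82-fold rise (log2 fold change 1.50, SE 0.12, adjusted p = 0.0194 by edgeR). Ncan, the lectican neurocan that is typical of the immature brain, overlapped between the groups at 1005 and 1927 CPM in del/del libraries, against 807 and 1201 CPM in del/fl libraries (log2 fold change 0.50, SE 0.11, adjusted p = 0.069 by edgeR).

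Among receptors and other membrane or signalling proteins 2 of 5 rose. Mmd2, a membrane protein known as a target of SOX9 and NFIA at the onset of gliogenesis (chromosome 5, 142562365 to 142608800), had 48.1 and 77.2 CPM in del/del libraries, against 11.5 and 21.1 CPM in del/fl libraries (log2 fold change 1.96, SE 0.09, adjusted p = 0.0194 by edgeR). Its change was nearly the same in the lines, 2.06 in line A and 1.87 in line B. Ndrg2, a cytoplasmic protein of astrocytes (chromosome 14, 51905271 to 51913488), had 34.8 and 57.5 CPM in del/del libraries, against 14.8 and 22.4 CPM in del/fl libraries (log2 fold change 1.30, SE 0.09, adjusted p = 0.0194 by edgeR), again close between lines. Ednrb, the endothelin B receptor, lay just outside the threshold at 1619.7 and 890.2 CPM in del/del libraries, against 621 and 564 CPM in del/fl libraries (log2 fold change 1.02, SE 0.18, adjusted p = 0.0505 by edgeR). It was called with DESeq2 and with DESeq2 size factors in edgeR. Gpr37l1, an orphan receptor of astrocytes, was low at 2.72 and 4.16 CPM in del/del libraries, against 1.11 and 2.05 CPM in del/fl libraries (log2 fold change 1.14, SE 0.23, adjusted p = 0.0595 by edgeR). Tril, a partner of Toll-like receptors in glia, had 220.3 and 166 CPM in del/del libraries, against 158 and 144 CPM in del/fl libraries (log2 fold change 0.34, SE 0.09, adjusted p = 0.0844 by edgeR), and 16.0% and 5.46% of its exon length overlap a pair of noncoding entries on the opposite strand, both named Gm16499.

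**Figure D2:**
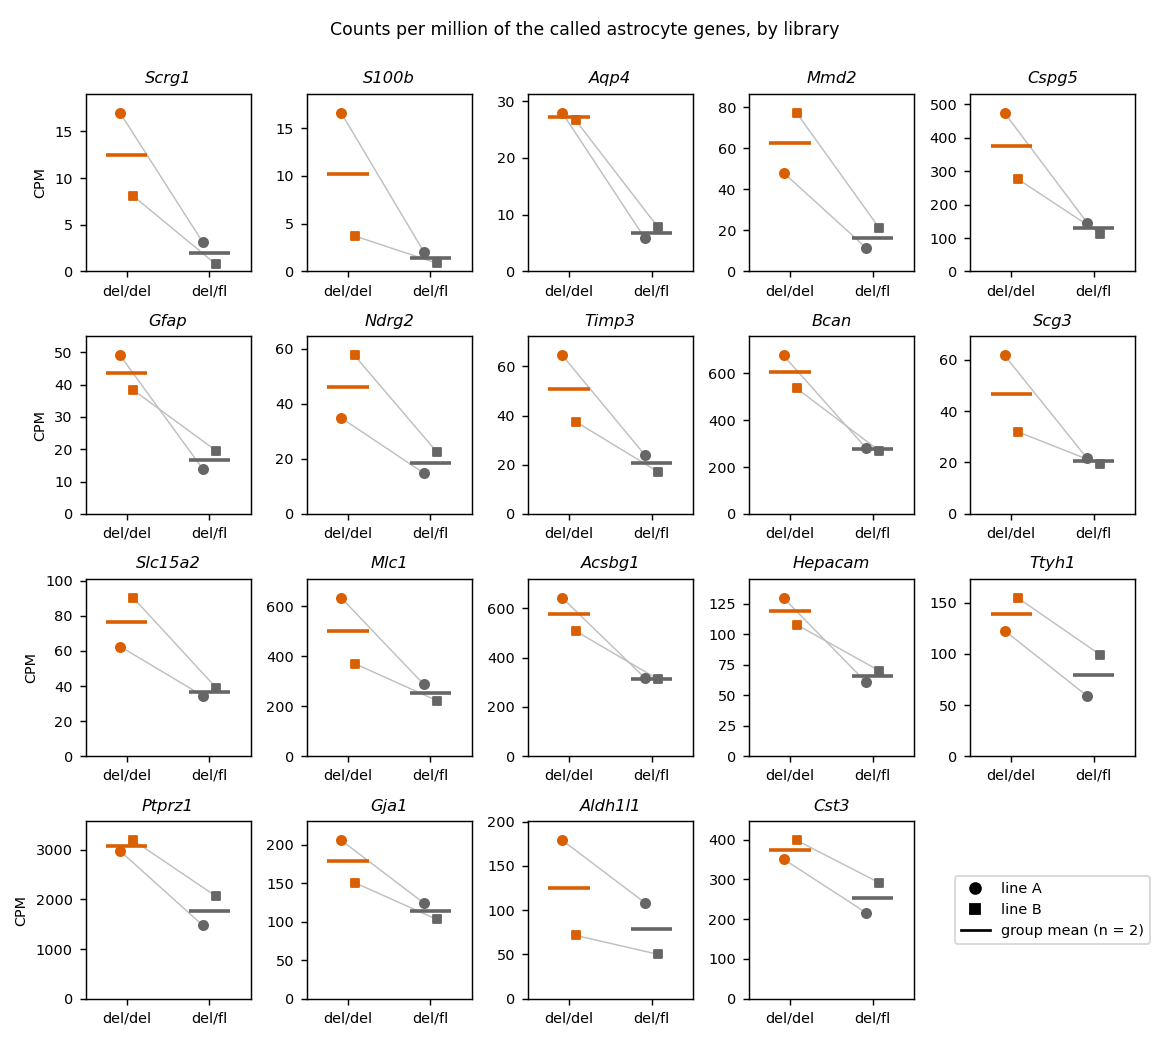
CPM of the 19 called genes in each library, with Smchd1 del/del at the left and del/fl at the right of each panel; circles are line A, squares line B, grey lines join the libraries of a line and bars are group means of 2 libraries. Both del/del libraries lie above both del/fl libraries in every panel except Aldh1l1.

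The nuclear factor I transcription factors, which act upstream of many of these genes, were not called, and their values went in different directions. Nfia had 153 and 126 CPM in del/del libraries, against 138 and 103 CPM in del/fl libraries (log2 fold change 0.22, SE 0.07, adjusted p = 0.124 by edgeR). Nfix had 224 and 213 CPM in del/del libraries, against 179 and 215 CPM in del/fl libraries (log2 fold change 0.15, SE 0.10, adjusted p = 0.354 by edgeR). Nfib had 345 and 447 CPM in del/del libraries, against 486 and 559 CPM in del/fl libraries, with both del/del libraries below both del/fl libraries (log2 fold change −0.41, SE 0.08, adjusted p = 0.0553 by edgeR), and DESeq2 called it lower. The groups overlapped for Nfia, because del/fl line A lay above del/del line B, and for Nfix, whose lines differed in direction.

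Metallothioneins, small metal-binding proteins that astrocytes express and that respond to zinc and glucocorticoids, were not called either. Mt3, the brain form, had 260.0 and 182 CPM in del/del libraries, against 159.8 and 151 CPM in del/fl libraries (log2 fold change 0.49, SE 0.12, adjusted p = 0.0751 by edgeR). Mt1 and its neighbour Mt2 differed more between the lines than between the groups. Mt1 had 76.7 and 159 CPM in del/del libraries, against 60.4 and 143 CPM in del/fl libraries (log2 fold change 0.25, SE 0.08, adjusted p = 0.112 by edgeR). Mt2 had 33.3 and 70.2 CPM in del/del libraries, against 36.3 and 92.3 CPM in del/fl libraries (log2 fold change −0.27, SE 0.09, adjusted p = 0.133 by edgeR), and 73.5% of its exon length is shared with the antisense gene Gm45774. Line B was the higher line for both, in either group. The assignment of reads between these closely similar genes is uncertain.

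Separation of the groups was frequent among the members. Of the 38, 26 had both del/del libraries above both del/fl libraries, where 22.9% of all genes tested did, and 2 had both below (Cd44 and Nfib), where 22.8% did. The other 10 overlapped. Of the 19 called genes 18 were separated, with Aldh1l1 the exception.

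Levels of different genes can be compared only per length. Per kilobase of exon in GENCODE M21, and provided that only exonic reads were counted, Cst3 was the highest member (296 in del/del cells and 201 in del/fl cells, in CPM per kilobase). Among the other high members on that scale, Ednrb had 294 in del/del cells and 139 in del/fl cells, Ptprz1 216 in del/del cells and 124 in del/fl cells, and Mt3 207 in del/del cells and 146 in del/fl cells. Apoe had 199 in del/del cells and 113 in del/fl cells and Ncan 204 in del/del cells and 139.5 in del/fl cells CPM per kilobase. The genes with the largest fold changes were near the bottom of the order in del/fl cells. S100b stood at 6.84 in del/del cells and 0.979 in del/fl cells, Aqp4 at 4.37 in del/del cells and 1.09 in del/fl cells, Scrg1 at 17.9 in del/del cells and 2.78 in del/fl cells and Mmd2 at 12.1 in del/del cells and 3.14 in del/fl cells CPM per kilobase. Gfap, at 10.3 in del/del cells and 3.97 in del/fl cells, lay below Cst3 and Ptprz1 in level in del/del cells too.

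The lines agreed in sign for all but Kcnj10, Nfix and Fjx1, while the sizes differed. By absolute size on the log2 scale, the change was larger in line A for 30 of the 38 tested genes and for 16 of the 19 called ones (Scrg1, Slc15a2 and Ndrg2 were larger in line B). The same was so for 9248 of the 14860 genes tested. With 1 library per group in a line, the difference between lines could not be tested against replicates, and exact binomial 95% intervals of the ratio of counts cover counting error only. For Pla2g7 the ratio was 6.26 (5.53 to 7.11) in line A and 2.02 (1.82 to 2.25) in line B. For Dio2 it was 4.21 (3.77 to 4.70) in line A and 1.70 (1.59 to 1.82) in line B. Apoe had the reverse order, with 1.30 (1.26 to 1.34) in line A and 2.44 (2.37 to 2.51) in line B. Line A is also the line whose del/del library had raised interferon-stimulated genes. With line A left out, the members' median in line B alone was 0.65, 33 of 38 were positive, and the 19 called genes ran from 0.45 to 3.30 on the log2 scale.

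**Figure D3:**
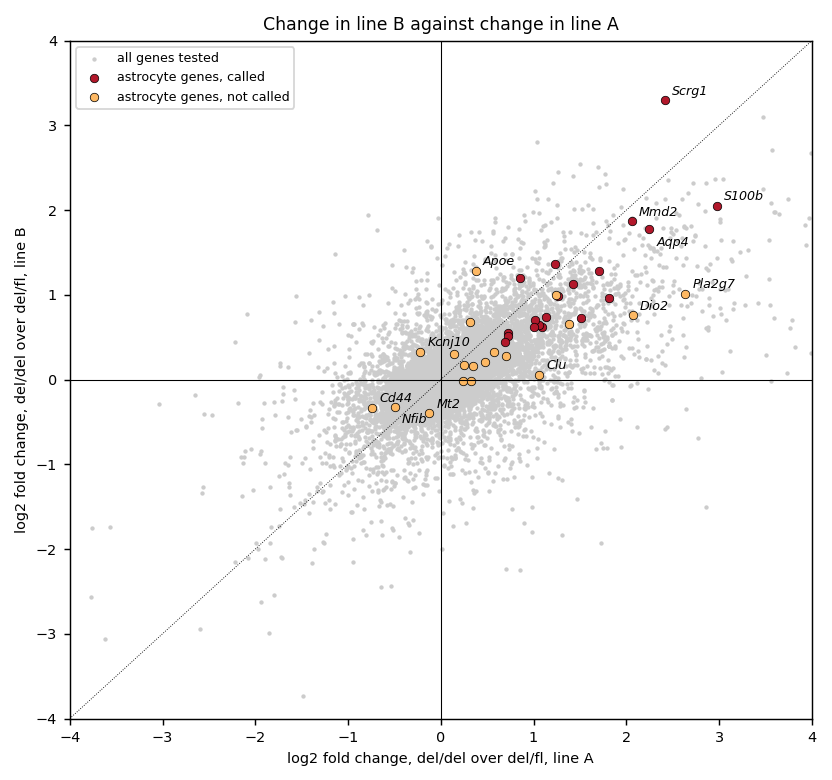
Log2 fold change in line B against that in line A, Smchd1 del/del over del/fl, for all 14860 genes tested (grey) and the astrocyte genes (coloured by call); the dotted line marks equal change, and 9 genes lie outside the axes. Most astrocyte genes lie in the upper right below the dotted line, with Pla2g7, Dio2 and Clu far to the side of line A and Apoe to that of line B.

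Other genes of astrocytes were listed beside the 40. Of 50 further astrocyte genes, 43 were tested, 14 rose (32.6%, beside 3.71% of all genes) and 1 fell, with a median log2 fold change of 0.55. Atp1b2, a sodium pump subunit of astrocytes, had 511 and 498 CPM in del/del libraries, against 137 and 195 CPM in del/fl libraries (log2 fold change 1.63, SE 0.14, adjusted p = 0.0205 by edgeR). Its groups were separate. Slc1a3, the glutamate transporter of radial glia and astrocytes, had 2405 and 2612 CPM in del/del libraries, against 1199 and 1383 CPM in del/fl libraries (log2 fold change 0.96, SE 0.08, adjusted p = 0.0197 by edgeR). The GABA transporter gene Slc6a11 rose by a log2 fold change of 1.50, the cholesterol-esterifying enzyme gene Lcat by 1.35, the matricellular gene Sparcl1 by 1.34, the glycogen-targeting gene Ppp1r3c by 1.13 and the potassium channel gene Kcnj16 by 0.77. Megf10, an engulfment receptor, was the 1 gene that fell (log2 fold change −0.62, SE 0.08, adjusted p = 0.0309 by edgeR), and it is named after its value was seen. Slc1a3 is also in the list of progenitor markers. Without the term for line 0 of the 43 were called.

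Of 30 tested regulators of gliogenesis, 2 rose and 1 fell, where 3.71% of all genes were called higher and 1.89% lower. Their median log2 fold change was −0.014. Cntfr, the receptor of ciliary neurotrophic factor that feeds into STAT3, had 34.3 and 39.6 CPM in del/del libraries, against 22.7 and 27.7 CPM in del/fl libraries (log2 fold change 0.56, SE 0.09, adjusted p = 0.0415 by edgeR). Erbb4, a neuregulin receptor, rose by 1.04 and Notch2 had a log2 fold change of −0.59. Sox9, which acts with NFIA in early glia, was not called at 116 and 114 CPM in del/del libraries, against 135 and 136 CPM in del/fl libraries (log2 fold change −0.24, SE 0.07, adjusted p = 0.0915 by edgeR). Reactive astrocyte genes showed 1 rise and 2 falls among 23 tested, beside the same shares of all genes. At an unadjusted p under 0.05 by edgeR, 7 were higher and 3 lower, where 17.2% of all genes were higher and 13.6% lower. Serpina3n, a protease inhibitor, rose (log2 fold change 1.97, SE 0.26, adjusted p = 0.0322 by edgeR). Its groups overlapped, at 9.62 and 2.50 CPM in del/del libraries, against 2.89 and 0.469 CPM in del/fl libraries, with 16 counts in del/fl line B. Emp1 fell (log2 fold change −2.11, SE 0.15, adjusted p = 0.0194 by edgeR), as did S100a10 (log2 fold change −0.76, SE 0.08, adjusted p = 0.0233 by edgeR).

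Markers of other cell types were read as summed levels. Calls in these lists stand beside 3.71% of all genes called higher and 1.89% called lower. Neural stem and progenitor markers summed to 16618 and 12738 CPM in del/del libraries, against 16455 and 13086 CPM in del/fl libraries. These sums include Slc1a3, at 2405 and 2612 CPM in del/del libraries, against 1199 and 1383 CPM in del/fl libraries. The median log2 fold change was −0.095, and 5 of 24 were positive in both lines, where 38.1% of all genes were. Of the 24, 2 were called higher (Slc1a3 among them) and 1 lower (Tnc, log2 fold change −0.51). Nes was not called (log2 fold change −0.48, SE 0.09, adjusted p = 0.0536 by edgeR). Neuron markers summed to 229.7 and 242 CPM in del/del libraries, against 298 and 236 CPM in del/fl libraries, with Elavl3 higher (0.64) and Syt1 lower (−1.47) among 17 tested. Syt1 alone made up 61.4 and 25.9 CPM of the sums in del/del libraries, against 170 and 72.0 CPM in del/fl libraries. The median log2 fold change of neuron markers was 0.21. At an unadjusted p under 0.05 by edgeR, 6 neuron markers were higher and 1 lower, beside 17.2% and 13.6% of all genes. Oligodendrocyte lineage markers summed to 2709.7 and 2608 CPM in del/del libraries, against 2979 and 2573 CPM in del/fl libraries, led by Olig1 and Olig2, and edgeR called 0 of 13, DESeq2 1 higher. Before adjustment p was under 0.05 for 6 of them, 5 higher and 1 lower, beside 17.2% and 13.6% of all genes. Their median log2 fold change was 0.48, and Bmp4 was at 0 in every library.

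Microglia markers summed to 43.8 and 31.3 CPM in del/del libraries, against 31.5 and 27.9 CPM in del/fl libraries. Neither edgeR nor DESeq2 called any of the 3 tested (0 calls each), and 1 was higher at an unadjusted p under 0.05 (17.2% of all genes). The defining Cx3cr1, Tmem119, C1qa, C1qb, C1qc, Trem2, Tyrobp and Fcrls were at 0 in every library. Mesenchyme markers summed to 112 and 126 CPM in del/del libraries, against 158 and 90.2 CPM in del/fl libraries, with Dcn and Lum at 0 and Thy1 called higher (1.72). Endothelial markers summed to 8.18 and 5.47 CPM in del/del libraries, against 4.61 and 5.11 CPM in del/fl libraries, with Cdh5 and Tie1 at 0 and Flt1 called higher, a gene named after its value was seen (2.22). Ependymal markers summed to 85.4 and 59.1 CPM in del/del libraries, against 91.1 and 72.0 CPM in del/fl libraries, mostly Foxj1 (−0.27, not called), and Tmem212 was at 0. Of 6 ependymal markers tested, edgeR and DESeq2 called 0. Before adjustment p was under 0.05 for 2 higher and 1 lower gene, with the same background. Of 27 cell cycle genes tested, edgeR called 0, DESeq2 called 2 higher, and 11 were higher at an unadjusted p under 0.05, where 17.2% of all genes were, with a median log2 fold change of 0.18, Top2a at 0.44 and Mki67 at 0.37. Of 12 housekeeping genes, 1 was called, the X-linked Hprt (−0.59), where 1.89% of all genes were called lower. Their median was −0.10. At an unadjusted p under 0.05 by edgeR, 3 were higher and 5 lower, beside 17.2% and 13.6% of all genes.

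**Figure D4:**
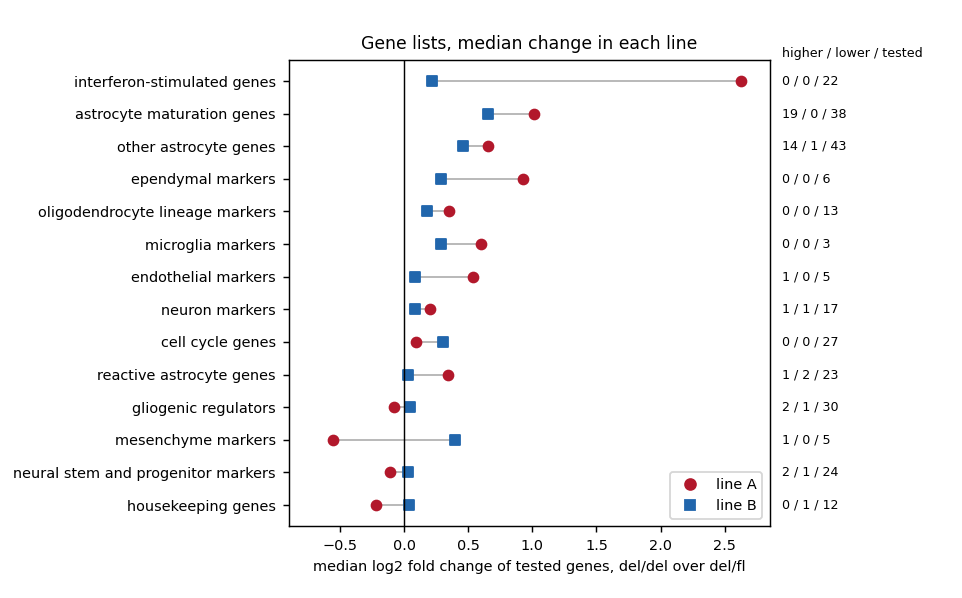
Median log2 fold change, Smchd1 del/del over del/fl, of the tested genes of each list in line A (circles) and line B (squares), with the number called higher, called lower and tested at the right. The 40 astrocyte genes (medians 1.01 and 0.65) and the further astrocyte genes (0.66 and 0.46) are the lists with the most calls, while interferon-stimulated genes differ most between the lines (2.62 and 0.22).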

How the data were processed

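The deposited table gives the authors' raw counts for each gene, never scaled, in 12 value columns from 4 libraries. The 4 columns of all aligned reads were used. The other 8 columns, reads split by parental genome, were not analysed here, and the planned tests of the ratio of alleles were left out with them. Column names, also of the 4 used, show group and line but not which labelled sample they are. The submitters' processing notes name mm10, bcl2fastq, edgeR and TopHat2 2.0.12. The counting of reads, and whether strand was used, was not given in these sources. The titles number the lines differently from the columns, so A and B (replicates 1 and 2 where a library was left out) follow the columns.

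Total counts were tested with edgeR 4.0.16 in R 4.3.3 (quasi-likelihood, TMM, filterByExpr, Benjamini-Hochberg threshold 0.05), with line as a block, because each line was divided between the groups. Deviations of same-line libraries from their group means correlated at r = 0.72 across 14860 genes, which are not independent replicates. SE is the log2 fold change over the square root of F. The blocked fit has 1 residual degree of freedom, and on simulated counts it made more false calls than its threshold states. Replicate libraries were not duplicates, with chi-square over its degrees of freedom at 71.1 for del/del and 43.9 for del/fl. With line as a block, level differences between lines are taken out of the error. The p-values of that fit reflect how far the change differed between 2 lines, with error estimates shared across genes. Per-line log2 ratios used a prior count of 2. Alternatives were no block, DESeq2 1.42.0 and its size factors, no filter, and leaving out libraries or lines.

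Members, the 13 further lists and the tests were chosen with earlier results of these data known, and the promoter motifs after the fits were seen. All members were named. From each further list the called genes whose average log2 CPM reached 1 were named by size of change, up to 8 for astrocyte and gliogenic genes and 4 otherwise, or the 2 most abundant where none was called. Some genes that this rule names are not reported here. Of the listed genes, Map2, Dnah11, Pifo and Cfap126 were not matched. Intervals cover counting error only.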

Additional observations from a re-analysis of the deposited data

Results flagged for a closer look

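Kcnj10 was the 1 member whose lines moved in opposite directions beyond counting error. Its log2 fold change, del/del over del/fl, in line A was −0.22, and in line B it was 0.33. The ratio of counts was 0.858 (0.804 to 0.917) for line A and 1.26 (1.20 to 1.32) for line B, with exact binomial 95% intervals. The difference between lines was not tested, since each line has 1 library per group.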

How the results depend on the processing

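The median log2 fold change of the members, 0.84 in the main fit, was 0.82 without the replicate block and ran from 0.65 to 1.01 with 1 library or 1 line left out. Without the replicate block, 0 members, 0 of all genes and 0 further astrocyte genes were called in either direction, while all 19 called members kept a positive value (0.56 to 2.81). Leaving out any 1 library dropped the block, which mixes line with genotype. It also assumed that the lone library varied like the other group. It gave counts of 0 to 0 for the same results. With no filter on low counts, 2 members were lower (Cd44 and Nfib) and 27 higher, 1131 of all genes were higher and 671 lower, and 26 further astrocyte genes were higher, against 551, 281 and 14 in the main fit. DESeq2 with the replicate block called 2 members lower (the same 2), 427 of all genes lower and 22 further astrocyte genes higher. The cause was not tested. DESeq2 size factors in edgeR added Ednrb to the 19 called members. These 19 were also all called without the filter and by DESeq2. The planned tests of the ratio of alleles and their alternatives were not run.

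Among members, signs turned only when libraries were left out. The ranges over those settings were −0.15 to 1.32 for Aldh1l1, −0.053 to 1.14 for Clu, −0.97 to 0.51 for Mt2, −0.018 to 0.94 for Ncan, −0.42 to 0.96 for Mt1, −0.59 to 0.61 for Kcnj10, −0.048 to 0.26 for Fjx1 and −0.015 to 0.32 for Nfix, whose lowest value was without line A. Further turns within these ranges were 0.12 for Mt2 without del/del line A, −0.28 for Mt1 and −0.14 for Kcnj10 without del/fl line A, −0.22 for Kcnj10 without line B and −0.020 for Fjx1 without line A. With 2 libraries per group, few residual degrees of freedom limit every test, and low counts limit S100b, Scrg1 and Gpr37l1.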
